A study of Homo sapiens with 18 samples.

Results

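The binding of KDM2B across the genome of MDA-MB-231, an established human line of triple-negative breast cancer cells, was described from 1 deposited list of peaks made by chromatin immunoprecipitation sequencing (ChIP-seq). All peaks of that list on chromosomes 1 to 22 were taken, which gave 19831 of its 20018 peaks, out of 778196 peaks in the 6 lists analysed. The list stands for 2 KDM2B libraries from parental cells with 5 ng of DNA each, for which no treatment or genetic change is labelled. It was read beside lists for MYC, H3K4me3, H2AK119ub and H3K27me3 from the same parental stock, and for H3K27ac from the stock labelled Empty Vector, with 2 libraries behind each. Input libraries of both stocks and 2 ATF4 libraries complete the study, but no peak list for ATF4 was analysed here. Nothing says that the libraries of a target came from separate cultures. One joint list per target also means that no value below has a replicate error. The files hold no read counts, so the depth is unknown, and intervals are 95% Wilson intervals that cover counting error only.

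KDM2B is a lysine demethylase of the JmjC family that removes methyl groups from H3K36. Its CXXC zinc finger binds CpG dinucleotides that carry no DNA methylation, which are dense at the CpG islands around many gene starts. Through PCGF1 and BCOR it brings RNF2 or RING1, the enzymes that ubiquitinate H2AK119, to such sites as part of the variant Polycomb complex ncPRC1.1. H3K4me3 marks active or poised gene starts, H3K27ac active starts and enhancers, and H3K27me3 is written by the other Polycomb complex, PRC2.

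Promoters with and without a KDM2B peak differed in their density of CpG, so a few of each are shown first. Each is 300 bases of the RefSeq promoter table (GRCh38.p14), 250 before and 50 after the listed start, written 5′ to 3′ on the strand of the gene with every CG in capitals. BCAR1, an adaptor protein of integrin signalling, and ABHD6, a lipase that hydrolyses monoacylglycerols, had peaks of fold 11.0 and 10.0 over the whole 300 bases of the starts shown. These hold 37 and 39 CG. KDM2B itself has 4 listed starts with 15, 15, 33 and 46 CG, and KDM2B was within 1 kb of 3 of them. The start with 46 CG is shown, of which peaks of fold 5.73 and 3.71 together cover 85 of the 300 bases.
BCAR1, chr16:75265958-75266257, minus strand: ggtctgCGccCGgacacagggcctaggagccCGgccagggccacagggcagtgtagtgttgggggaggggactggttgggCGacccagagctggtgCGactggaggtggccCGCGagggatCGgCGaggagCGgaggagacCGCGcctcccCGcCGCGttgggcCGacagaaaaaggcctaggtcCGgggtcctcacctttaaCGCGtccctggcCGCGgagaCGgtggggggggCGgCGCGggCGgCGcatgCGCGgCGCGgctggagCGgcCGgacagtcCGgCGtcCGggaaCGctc
ABHD6, chr3:58237542-58237841, plus strand: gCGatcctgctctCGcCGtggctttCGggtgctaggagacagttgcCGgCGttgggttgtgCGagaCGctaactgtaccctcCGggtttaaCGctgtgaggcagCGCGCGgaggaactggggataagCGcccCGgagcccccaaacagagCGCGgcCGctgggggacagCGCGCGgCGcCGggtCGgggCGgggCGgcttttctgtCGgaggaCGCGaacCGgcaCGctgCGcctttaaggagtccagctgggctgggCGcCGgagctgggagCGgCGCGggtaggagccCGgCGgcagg
KDM2B, chr12:121467329-121467628, minus strand: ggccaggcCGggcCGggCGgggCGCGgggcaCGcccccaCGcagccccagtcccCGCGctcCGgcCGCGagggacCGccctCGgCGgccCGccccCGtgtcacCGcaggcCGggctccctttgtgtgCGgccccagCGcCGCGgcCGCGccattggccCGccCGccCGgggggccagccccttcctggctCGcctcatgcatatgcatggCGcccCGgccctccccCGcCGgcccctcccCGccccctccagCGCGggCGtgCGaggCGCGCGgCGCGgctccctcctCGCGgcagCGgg

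CORO2B, which encodes a coronin that binds actin, has 5 listed starts and KDM2B at 1 of them. That start holds 33 CG and lies under a peak of fold 9.49, which covers 289 of the 300 bases. The next start into the gene holds 3 CG and had neither KDM2B nor H3K4me3 within 1 kb, but both H2AK119ub and H3K27me3.
CORO2B with KDM2B, chr15:68578743-68579042, plus strand: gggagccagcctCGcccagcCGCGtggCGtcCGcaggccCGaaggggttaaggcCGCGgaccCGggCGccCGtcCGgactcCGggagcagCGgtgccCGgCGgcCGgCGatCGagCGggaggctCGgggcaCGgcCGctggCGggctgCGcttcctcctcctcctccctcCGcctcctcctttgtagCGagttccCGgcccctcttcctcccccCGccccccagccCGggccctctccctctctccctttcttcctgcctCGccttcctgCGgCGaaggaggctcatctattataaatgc
CORO2B without KDM2B, chr15:68616289-68616588, plus strand: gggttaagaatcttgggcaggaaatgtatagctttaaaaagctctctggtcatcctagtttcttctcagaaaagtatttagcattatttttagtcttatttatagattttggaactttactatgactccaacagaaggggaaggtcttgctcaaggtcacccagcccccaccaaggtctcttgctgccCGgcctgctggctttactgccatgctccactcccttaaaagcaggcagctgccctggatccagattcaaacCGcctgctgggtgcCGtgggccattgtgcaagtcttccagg

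Promoters dense in CpG were also found without KDM2B, and the densest are shown for contrast. PACS2, whose product sorts membrane cargo, had the most CG, 69, among promoters with H3K4me3 and MYC but no KDM2B. TAFA5, which encodes a secreted chemokine-like protein, had the most, 67, among those with neither KDM2B nor H3K4me3, and none of the 5 other targets was listed there.
PACS2, chr14:105314498-105314797, plus strand: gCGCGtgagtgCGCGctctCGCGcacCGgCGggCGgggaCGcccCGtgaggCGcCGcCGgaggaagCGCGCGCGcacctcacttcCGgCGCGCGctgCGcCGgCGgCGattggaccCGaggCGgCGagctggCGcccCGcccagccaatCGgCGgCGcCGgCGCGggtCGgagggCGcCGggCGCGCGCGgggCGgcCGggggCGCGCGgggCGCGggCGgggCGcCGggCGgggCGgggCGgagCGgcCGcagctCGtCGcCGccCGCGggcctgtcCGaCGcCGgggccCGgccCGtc
TAFA5, chr22:48489303-48489602, plus strand: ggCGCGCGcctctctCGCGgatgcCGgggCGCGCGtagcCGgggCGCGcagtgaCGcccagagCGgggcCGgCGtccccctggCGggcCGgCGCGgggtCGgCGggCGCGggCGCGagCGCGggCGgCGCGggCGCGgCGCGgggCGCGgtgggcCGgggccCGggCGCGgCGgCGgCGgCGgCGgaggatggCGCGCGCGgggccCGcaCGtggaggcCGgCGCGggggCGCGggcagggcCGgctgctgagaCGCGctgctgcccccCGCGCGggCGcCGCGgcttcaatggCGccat

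Facts of the series that bear on all results were as follows. H3K27ac was listed at starts of 10 of 13 mesenchymal and basal markers, including AXL, CD44, EGFR and VIM, but not CDH2, KRT5 and TP63. Of 10 luminal and epithelial markers, 5 had it, CLDN4, CLDN7, FOXA1, GATA3 and KRT8. CLDN3, ELF3, ESR1, PGR and SPDEF did not. H3K27ac was also at 1 of 3 haematopoietic markers (CD8A, without CD14 and PTPRC) and 2 of 5 neuronal ones (GAD1 and TUBB3). Only markers with a listed start were counted. The lists hold 16 mesenchymal and basal, 16 luminal and epithelial, 10 haematopoietic and 9 neuronal genes. CDH1, EPCAM, ESRP1, GRHL2, KRT18 and KRT19 were thus not read, nor were KRT14, SNAI2 and TWIST1. The share of all protein-coding genes with H3K27ac at a start is not given here, so these counts have no background. The KDM2B list shared bases with the MYC list in 81.8% of its peaks, with H3K4me3 in 78.4%, with H3K27ac in 74.2%, with H2AK119ub in 24.7% and with H3K27me3 in 4.92%. In that order the other lists held 49142, 70139, 93685, 233024 and 298852 peaks on chromosomes 1 to 22. The overlap to be expected from the bases each list covers was not computed. The H3K27ac value compares 2 cell stocks. With at least 50% of the KDM2B peak covered, the H2AK119ub share was 16.4%, and over the 10000 peaks of highest fold the H3K27me3 share was 3.18%.

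KDM2B peaks were narrow and covered little of the genome. Their width had a median of 386 bp, with 266 bp and 678 bp as quartiles, a shortest of 179 bp and a widest of 6922 bp. Together they covered 11.0 Mb. The fold enrichment of the authors' peak caller, used here only to describe and rank peaks of 1 list, had a median of 3.29, with 2.68 and 4.16 as quartiles and a highest value of 26.3. The deposited −log10 q had a median of 6.83, and 12700 peaks (64.0%) had a q under 1e-05. At the weak end 888 peaks (4.48%) had a −log10 q under 2, and the largest q in the list was 0.0499.

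Gene starts held the wider and stronger peaks. Of all peaks, 9189 (46.3%, interval 45.6% to 47.0%) came within 1 kb of a listed start of a protein-coding gene. Their median width was 509 bp and their median fold 3.75. A further 1823 peaks (9.19%) lay at an end of a protein-coding gene that had no listed start, which includes every gene of chromosome 8, with a median width of 519 bp and a median fold of 3.74. Starts of lncRNA genes, which encode long RNAs that are not translated, held 599 more (3.02%), with a median fold of 3.48. Inside the record of a protein-coding gene, away from those places, lay 2383 peaks (12%), narrower at a median of 333 bp and lower in fold at 3.06. Records of other genes held 925 (4.66%). The remaining 4912 (24.8%) lay outside every gene record, with the smallest medians, 283 bp and a fold of 2.54.

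**Figure D1:**
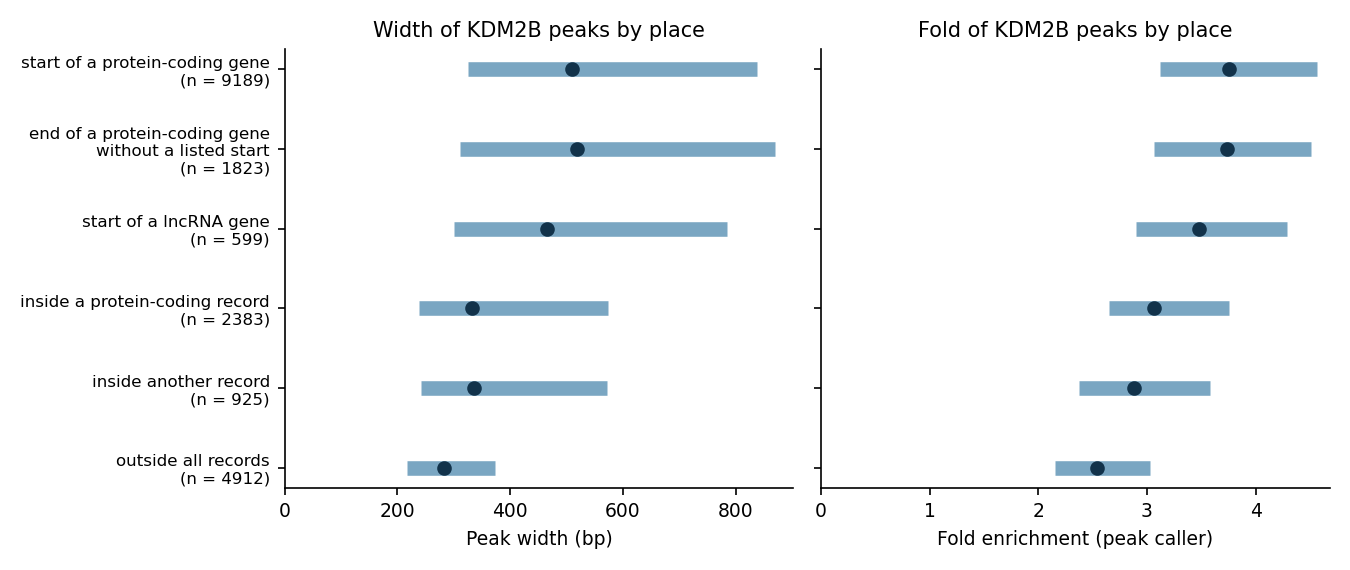
Width in bp (left) and fold enrichment (right) of KDM2B peaks by place in the genome; dots are medians, bars run between the quartiles, and n is the number of peaks. Both medians are highest at gene starts or ends and lowest outside all gene records, where they were 283 bp and 2.54.

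The company of the other targets changed with place. At protein-coding starts, 99.7% of the KDM2B peaks overlapped H3K4me3, 99.1% MYC, 95.8% H3K27ac, 19.7% H2AK119ub and 2.24% H3K27me3. Inside protein-coding records, 2143 of 2383 peaks still overlapped H3K4me3, and 1028 overlapped H2AK119ub. Outside all records, H3K4me3 was under 1241 of 4912 peaks, MYC under 1980 and H2AK119ub under 977. There, 2447 peaks overlapped none of the 5 other lists, against 4 of 9189 at protein-coding starts.

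Width and fold went together. Among the 4186 peaks under 250 bp, 25.8% were at a protein-coding start and the median fold was 2.75. Of the 5051 peaks of 500 to under 1000 bp, 60.1% were at a start and the median fold was 3.90. The 335 peaks of at least 2000 bp had 66.9% at a start and a median fold of 5.59. Spearman's rho between width and fold was 0.596 over the 19831 peaks, which share the same libraries, and is given as a description. H2AK119ub overlapped 756 of the 4186 peaks under 250 bp and 256 of the 335 of at least 2000 bp. A wider peak also has more bases on which another peak can fall.

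The widest peak, 6922 bp (chr20:62364279-62371200, hg38), was at the start of LAMA5, a laminin chain of basement membranes, with a fold of 6.45. The next spanned 6826 bp inside PLEC (chr8:143933405-143940230), which encodes the cytolinker plectin, with a fold of 3.50. A peak of 5324 bp covered the start of EHBP1L1 and the whole record of FAM89B (chr11:65572100-65577423), with a fold of 5.03. TNRC18 followed with 5297 bp (chr7:5418465-5423761, fold 6.89). The last of the 5 reached from CRACR2B to the tetraspanin gene CD151 (chr11:828934-834108, 5175 bp, fold 5.17). All 5 overlapped MYC, H3K4me3, H3K27ac and H2AK119ub, and none overlapped H3K27me3.

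Summits leaned to the middle of the peaks and, at genes, most lay inside the start. Counted from the lower coordinate, the summit lay at a median of 49.4% of the width, with quartiles of 31.5% and 67.2%. This median alone does not tell central summits from summits at both edges. The middle 50% of the width held 67.9% of summits, where an even spread would put 50%. Around protein-coding starts, 8793 summits lay within 1 kb of the nearest listed start. Of these, 6338 (72.1%, interval 71.1% to 73.0%) were downstream of it, at a median of 160 bp into the gene with quartiles of -89 bp and 319 bp. The fullest 100 bp ran from 100 to 200 bp downstream and held 1931 summits (22%). Only 3.18% fell in the last 100 bp before the start, fewer than the 5.45% between 300 and 200 bp upstream. MYC summits stood at a median of 118 bp and were downstream in 65.4%, H3K4me3 summits at 200 bp and in 80.2%, and H3K27ac summits at 147 bp and in 67.8%. All 4 targets had their fullest bin between 100 and 200 bp. The last 100 bp before the start held 2.00% of H3K4me3, 1.95% of H3K27ac and 6.54% of MYC summits. What sets these positions was not tested.

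**Figure D2:**
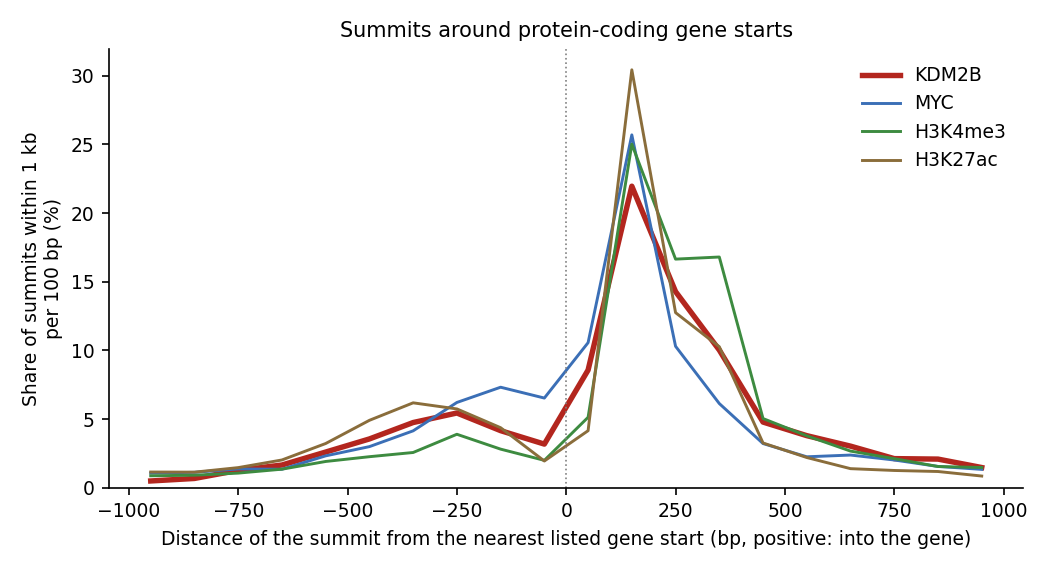
Share of the summits within 1 kb of the nearest listed protein-coding start (vertical axis, % per 100 bp) against the distance in bp, positive into the gene, for KDM2B (thick line), MYC, H3K4me3 and H3K27ac. KDM2B has 22% of its summits between 100 and 200 bp downstream, a dip to 3.18% just upstream of the start and a lower shoulder of 5.45% between 300 and 200 bp upstream.

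Strong and weak peaks kept this position. In the quartile of lowest fold (up to 3.12) the median summit was 150 bp downstream and 67.2% were downstream. In the quartile of highest fold (4.53 to 11.0) the values were 174 bp and 74.2%.

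Ranking by fold and ranking by q picked different places. The 100 peaks of highest fold (7.92 and above) all overlapped H3K4me3 and MYC, 93 overlapped H3K27ac, 66 H2AK119ub and 13 H3K27me3. Among them 62 were at a protein-coding start and 1 lay outside all records. The 100 peaks of smallest q had −log10 q of 111 and above but a median fold of 2.18. Of these, 86 lay outside all records, none was at a protein-coding start, and 4 overlapped H3K4me3, while 87 overlapped MYC and 63 H2AK119ub. Only 3 peaks were in both groups of 100. Over all peaks, Spearman's rho between fold and −log10 q was 0.704, as a description over peaks of the same libraries. The smallest q of all belonged to a peak of 1101 bp on chromosome 1 (chr1:125179593-125180693), with −log10 q of 1155 and a fold of 2.15, outside all records. What a large −log10 q at a small fold reflects was not tested, and the part of repeated sequence was not tested either.

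**Figure D3:**
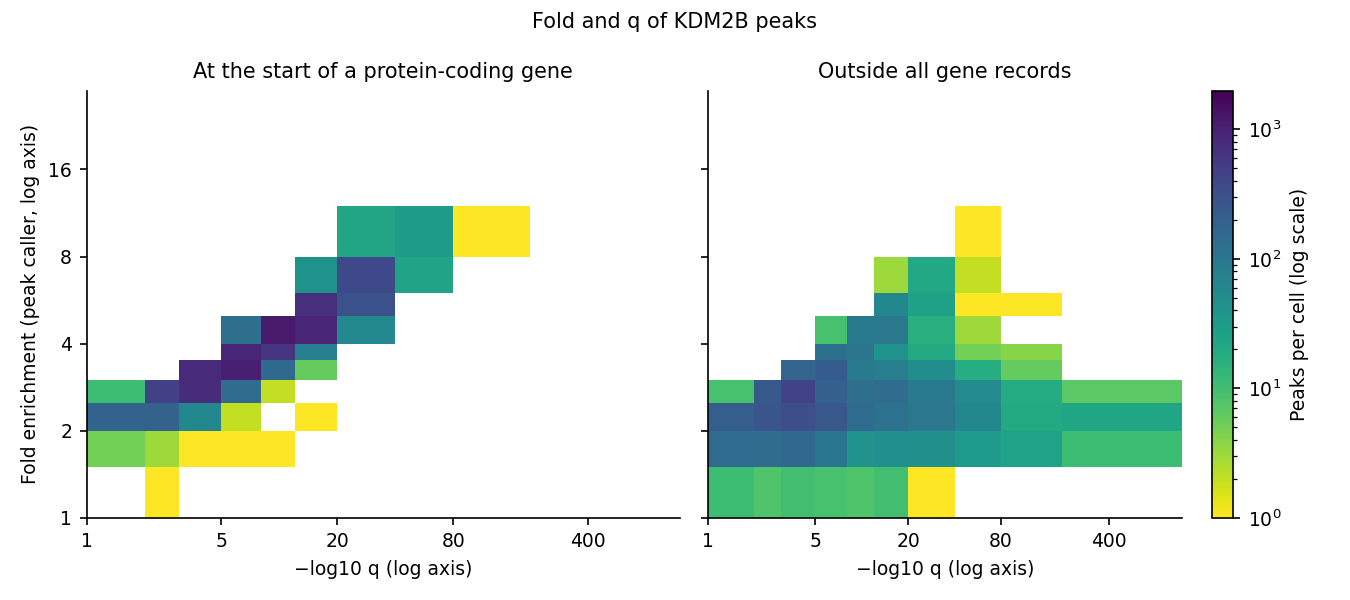
Number of KDM2B peaks (colour, log scale) by fold enrichment (vertical, log axis) and −log10 q (horizontal, log axis), for peaks at the start of a protein-coding gene (left) and outside all gene records (right). At starts fold and −log10 q rise together. Outside records 115 of the 134 peaks with −log10 q of 80 and above are found, at a median fold of 2.19.

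The 3 highest folds in the list were at records annotated as pseudogenes. ANKRD18DP on chromosome 3 held a peak of 3065 bp at fold 26.3 (chr3:198079870-198082934), MCF2L2P1 one of 1415 bp at fold 18.9 (chr3:186826739-186828153), and TMPOP1 on chromosome 6 one of 2643 bp at fold 18.6 (chr6:30464995-30467637). All 3 overlapped MYC and H3K4me3. The peaks at ANKRD18DP and TMPOP1 also overlapped H2AK119ub and H3K27me3 and lacked H3K27ac. For reads that match both a pseudogene and its parent gene, the sources used here do not say where they were placed.

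With genes as units, KDM2B was at a listed start in 7808 of 15101 protein-coding genes (51.7%, interval 50.9% to 52.5%) and in 2058 of 11145 lncRNA genes (18.5%). The fold at the protein-coding starts had a median of 3.94, with quartiles of 3.29 and 4.74. BCAR1 had the highest, 11.0, from a peak of 3116 bp (chr16:75263869-75266984) whose summit lay 89 bp upstream of a start. IRF2BPL followed with 10.5 from a peak of 3476 bp, whose summit lay 2541 bp downstream of the only listed start. SPAG7 had 10.2 and ABHD6 10.0. FAM43A had 9.93 from a peak that also covered the start of LOC124909474. EPB41L4A, which encodes a FERM-domain protein of the membrane skeleton, had 9.83 and was the one of the 15 highest genes with H3K27me3 within 1 kb of a start that had KDM2B.

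Below 9.8 stood SNX15, a sorting nexin of endosomes, at 9.67, the narrowest of these peaks at 485 bp. SMAD6, an inhibitor of bone morphogenetic protein signalling, had 9.62, with the summit 797 bp inside the gene. B3GNT5, a glycosyltransferase that starts lacto-series glycolipids, had 9.61. CORO2B had 9.49 and GFPT2, which catalyses the first step of hexosamine synthesis, 9.38. One peak of 3427 bp on chromosome 16 (chr16:1770684-1774110, fold 9.48) covered the starts of EME2, a nuclease subunit of DNA repair, MRPS34, a protein of the mitochondrial ribosome, and NME3, a nucleoside diphosphate kinase. All 15 genes had MYC, H3K4me3 and H3K27ac at a start with KDM2B, and all but SPAG7, SNX15 and B3GNT5 had H2AK119ub.

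Some peaks were near the starts of more than 1 gene, which does not show that they act on either. How often starts of different genes lie this close without a peak is not given here. Starts of at least 2 protein-coding genes came within 1 kb of 1107 peaks, which is 5.58% of all peaks and 12% of those at a start. Of these, 1073 were at 2 genes and 34 at 3. Starts on opposite strands were at 1019 of them (92.1%), and in 891 the genes ran away from each other, with a median of 182 bp between the starts and quartiles of 103 and 303 bp. Such peaks had a median fold of 3.52 and a median width of 438 bp, against 3.76 and 520 bp at peaks of 1 gene. The strongest shared peak after those of FAM43A and the EME2 group was at SQSTM1, an autophagy receptor, and MGAT4B (fold 8.57). ZFYVE28 with CFAP99 had 8.34 and NAGS with PYY 8.25. COL4A3 and COL4A4, a divergent pair of collagen genes of basement membranes, shared a peak of fold 7.55. With lncRNA and all other genes of listed starts counted, 14.6% of peaks were at 2 or more genes.

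Genes with several starts showed which start KDM2B was at. Of 3867 protein-coding genes with at least 2 listed starts, KDM2B was at all of them in 1430 (37.0%), at some in 1053 (27.2%) and at none in 1384 (35.8%). In 963 of the 1053 genes in between (91.5%), the starts with KDM2B had more CpG than the starts without it in the same gene. The median was 9.83 CpG per 100 bp at starts with KDM2B and 1.67 at starts without. H3K4me3 was within 1 kb of 99.6% of the starts with KDM2B in those genes and of 47.1% of the starts without. The start farthest upstream had KDM2B in 743 of the 1053 genes (70.6%), and the one farthest downstream in 267 (25.4%). SEPTIN9, a septin of the cytoskeleton, had KDM2B at 3 of 10 starts with a highest fold of 8.69. SMARCA2, an ATPase of the BAF complex, had it at 1 of 4 (8.35).

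Across all promoters of protein-coding genes, those with KDM2B were rich in CpG. The 10251 promoters with KDM2B within 1 kb had a median of 9.67 CpG per 100 bp and 67.7% G and C, against 2.67 CpG per 100 bp and 56.0% in the 10905 without it. With the 10000 peaks of highest fold alone, the medians were 10.0 and 4.33. At lncRNA genes the medians were 9.33 CpG per 100 bp with KDM2B (2307 promoters) and 1.00 without (10262). Only 599 peaks were at a lncRNA start and not already placed at a protein-coding gene. Promoters of the lncRNA and protein-coding classes can thus share a peak and are not separate sets. Promoters with H3K4me3 differed less, at 9.67 with KDM2B (10224) and 6.0 without (4313). The share of promoters with KDM2B was 2.46% (54 of 2193, interval 1.89% to 3.20%) where there was under 1 CpG per 100 bp. It was 46.4% between 4 and 6, 66.3% between 8 and 10, and 80.3% (1300 of 1618, interval 78.3% to 82.2%) at 14 or more. H3K4me3 itself was at 16% of promoters in the poorest class and 90.5% in the richest.

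**Figure D4:**
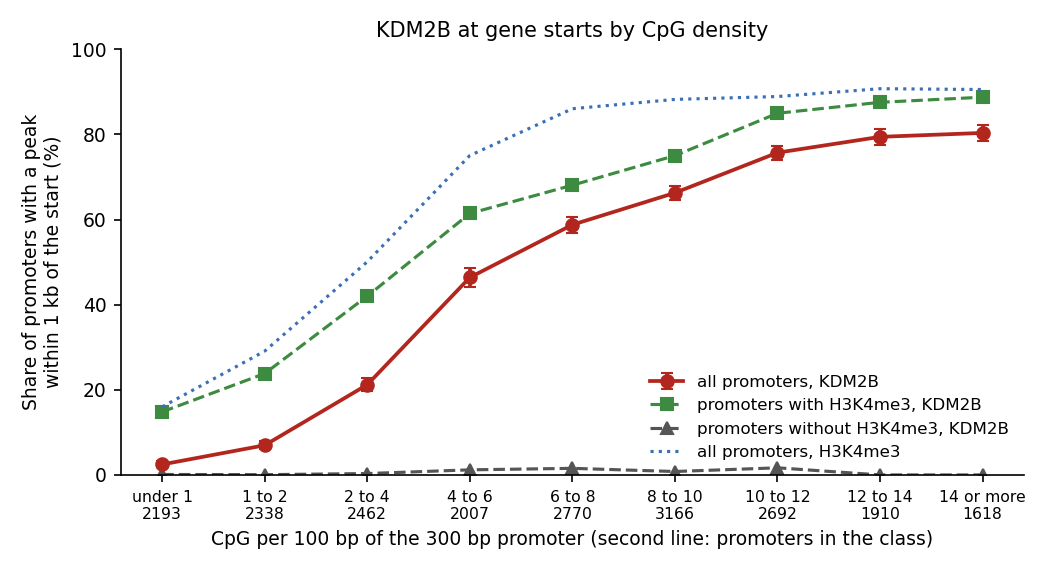
Share of promoters of protein-coding genes with a peak within 1 kb of the start (%) by CpG per 100 bp; points with a solid line are KDM2B at all promoters with 95% Wilson intervals, squares promoters with H3K4me3, triangles promoters without H3K4me3, and the dotted line shows H3K4me3 itself. KDM2B goes from 2.46% to 80.3% over the classes and stays at or under 1.67% where H3K4me3 is missing.

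Promoters were then split by H3K4me3. Among promoters with H3K4me3, the share with KDM2B was 14.8% (52 of 351) in the poorest class and 88.7% (1300 of 1465) in the richest. Without H3K4me3 it was 0.109% (2 of 1842) in the poorest class, and 0 of 153 in the richest. In that richest class without H3K4me3, H2AK119ub was at 72.5% of promoters and H3K27me3 at 55.6%. Fold was then read against CpG. Over promoters whose 300 bases a KDM2B peak touched, the median fold was 3.83 between 2 and 4 CpG per 100 bp and 4.21 at 14 or more. The rise was not steady, with 4.04 between 4 and 6 and 3.94 between 8 and 10.

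Short motifs of transcription factors were counted on both strands of the 300 bases. Their letters can overlap one another on the DNA, each motif was counted by itself, and a match is a description of letters only. The GC box of SP factors (GGGCGG) was in 76.2% of promoters with KDM2B and 38.1% of those without, with 56.6% of all 21156. Among promoters with H3K4me3 the shares were 76.3% with KDM2B and 54.3% without. The E-box of MYC (CACGTG) was in 10.0% with KDM2B and 6.56% without (8.25% of all), and among promoters with H3K4me3 in 10.0% and 8.56%. The core of the cAMP response element (TGACGT), which ATF and CREB factors bind, was in 10.4% with KDM2B and 7.32% without (8.82% of all), but in 10.4% and 10.5% among promoters with H3K4me3. The ETS motif (CCGGAAG) was in 17.4% with KDM2B and 8.73% without (12.9% of all), but in 17.4% and 17.6% among promoters with H3K4me3. The motif of NRF1 (GCGCATGC) was in 5.10% with KDM2B and 2.31% without (3.66% of all), and in 5.11% and 4.45% among promoters with H3K4me3. Each of these motifs holds a CG. Of the motifs without a CG, that of YY1 (AAGATGGC) was in 4.44% with KDM2B and 2.62% without (3.50% of all), but in 4.45% and 5.19% among promoters with H3K4me3. The composite motif of C/EBP and ATF factors (TGATGCAA) was in 0.302% with KDM2B and 1.03% without (0.676% of all). Among promoters with H3K4me3 its shares were 0.303% and 0.696%. The TATA box (TATAAA) was in 4.58% with KDM2B and 14.1% without (9.51% of all), but in 4.59% and 7.67% among promoters with H3K4me3. The CCAAT box (CCAAT) was in 32.9% and 35.7% (34.4% of all), and in 32.9% and 37.4% among promoters with H3K4me3.

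Several KDM2B peaks at 1 gene were common. Counted over the gene record with 1 kb on either side, 8670 of 19126 protein-coding genes held no peak, 6587 held 1, 2731 held 2 and 1138 held 3 or more. Thus 3869 genes (20.2%) had at least 2 peaks, and 185 had at least 5. The count of 3869 was 1640 with peaks less than 1 kb apart merged, 2302 over the record alone, 2132 with q under 1e-05 and 1847 with the 10000 peaks of highest fold. By length of the record, which also sets how many bases are searched, at least 2 peaks were in 13.1% of genes under 5 kb (387 of 2954) and in 28% of genes of 100 kb or more (898 of 3210), and the median length was 16.3 kb for genes with none and 63.1 kb for genes with at least 5.

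**Figure D5:**
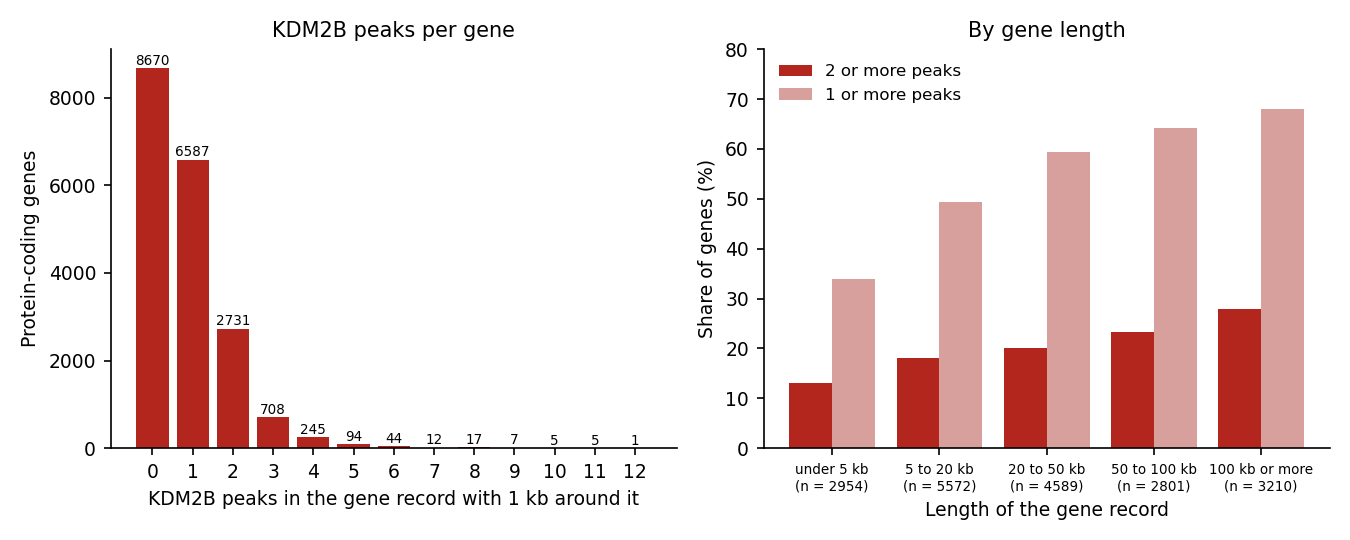
Left, number of protein-coding genes by the number of KDM2B peaks in the gene record with 1 kb around it. Right, share of genes (%) with 2 or more peaks (dark) and with 1 or more (light) by length of the record; the share with 2 or more is 13.1% in genes under 5 kb and 28% in genes of 100 kb or more.

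The most peaks were at LOC124905135 on chromosome 22, with 12 between folds of 2.62 and 5.15. Genes with 11 each included EPHA2, a receptor tyrosine kinase for ephrins, SETD1B, an H3K4 methyltransferase, LFNG, which glycosylates Notch, and EXT1, which polymerises heparan sulfate. With 10 each came NOL4L, PLEC, the G-protein subunit GNG7, the TGF-beta effector SMAD3, and BAIAP2, an organiser of the actin cytoskeleton. EPHA2 shows the pattern within 1 gene. Its strongest peak (fold 6.46, 1521 bp) had its summit 177 bp inside the start. The next strongest (fold 5.17, 1622 bp) had its summit 10080 bp downstream, and the other 9, of 265 to 630 bp, had folds between 2.66 and 3.62 over the stretch to 15805 bp. All 11 overlapped MYC, H3K4me3 and H3K27ac, and 5 overlapped H2AK119ub. SMAD3, in contrast, has 5 listed starts, and its 10 folds ran between 2.47 and 4.30.

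KDM2B peaks inside genes and away from every listed start were led by INSR, the insulin receptor, with a fold of 8.97 (chr19:7198142-7198689). LMO1, a LIM-only transcription cofactor, had 8.30, the receptor tyrosine phosphatase PTPRU 8.01, the nuclear receptor NR5A2 7.84 and the protocadherin PCDH1 7.80. All 5 overlapped MYC and H3K4me3. LMO1 and PCDH1 also had H3K27me3 and no H3K27ac. Starts are those of the RefSeq promoter table, so a start it does not list can lie under such a peak.

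Outside all gene records, the highest fold was 9.13 (chr6:7051064-7052723), 55.0 kb from RREB1. The next were 4.11 kb from MNX1 (fold 7.37), 25.9 kb from NFIA (7.36), 15.7 kb from LOC105376722 (7.27) and 9.46 kb from GRIN1 (7.24). All 5 overlapped H3K4me3 and MYC.

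Peaks often had a neighbour. Another KDM2B peak lay within 3 kb of 8836 peaks (44.6%) and within 1 kb of 35.9%, and the smallest gap was 180 bp. Among the 10000 peaks of highest fold, 29.6% had another of them within 3 kb. Between 3945 pairs of neighbours less than 1 kb apart the median gap was 348 bp, and in 1180 of these gaps (29.9%) stood a listed start of a protein-coding gene. Chained at 3 kb, the peaks formed 14677 clusters, of which 10995 were single peaks, 2837 pairs and 26 had at least 8 peaks.

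The 7 clusters with the most peaks had low folds, and most were at arrays of repeated genes. On chromosome 21, 56 peaks over 86.0 kb (chr21:8385803-8471845) held 8 ribosomal RNA records, RNA45SN1 and RNA45SN3 among them, at a median fold of 1.71. Of these peaks, 52 overlapped H2AK119ub and 2 overlapped H3K4me3. Another 2 clusters nearby held 21 peaks around RNA45SN2 and 17 peaks. The 30 peaks on chromosome 1 (chr1:228608533-228646631) held 17 records of 5S ribosomal RNA, such as RNA5S1 and RNA5S9, and the start of RHOU, at a median fold of 1.85. All 30 overlapped MYC, H3K4me3, H3K27ac and H2AK119ub, unlike the peaks on chromosome 21. On chromosome 4 (chr4:190067851-190091190), 17 peaks held 8 DUX4L pseudogenes, with H2AK119ub under all 17 and H3K4me3 under none. The 17 peaks on chromosome 10 (chr10:42066340-42082814) and 16 on chromosome 2 (chr2:90380682-90401192) held no gene record and no H3K4me3. Next came 15 peaks, 6 of them at protein-coding starts, over 19.8 kb on chromosome 19 (chr19:1233489-1253310), at CBARP, ATP5F1D and MIDN and with a median fold of 4.20 and H3K4me3 under all 15. Of the 26 clusters of at least 8 peaks, 12 had no H3K4me3. Where reads that match several copies of a repeat were placed is likewise not stated.

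Chromosomes differed in the places of their peaks. Chromosome 1 held the most peaks, 2104 (10.6%), and chromosome 18 the fewest, 325. Per 100 protein-coding genes, chromosome 12 had 75.6 peaks and chromosome 21 had 197. On chromosome 21, 57.0% of peaks lay outside all records, against 11.8% on chromosome 12.

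Whole genes lay inside single peaks. Small non-coding genes wholly inside a KDM2B peak numbered 59 of 1793 miRNA genes, 17 of 1150 small nucleolar RNA genes, 7 of 439 tRNA genes, 4 of 151 small nuclear RNA genes and 4 of 49 ribosomal RNA genes. H3K4me3 and MYC overlapped the peaks of all 59 miRNA genes, and 24 of these genes were in a peak at a protein-coding start, against 46.3% of all peaks. A peak that holds a whole gene must be at least as wide as the gene. Of all KDM2B peaks of 500 to under 1000 bp, 95.1% overlapped H3K4me3 and 97.8% MYC. Of those of 1000 to under 2000 bp, 98.2% and 99.8% did. Highest were MIR4449 (fold 7.93, at a lncRNA start), MIR4505 (7.75, at the start of MIDEAS), MIR4683 (7.46, at the start of the Wnt receptor gene FZD8) and MIR1915 (7.39, at a lncRNA start). MIR1199 (7.06) lay at the start of MISP3, MIR4740 (6.55) inside a protein-coding record, and MIR6821 (6.46) at the start of the kinase gene PIM3. The snoRNA gene SNORD147 had 6.19, and MIR3190 and MIR3191, which overlap each other, shared a peak of fold 6.07.

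Mature sequences for 54 of the 59 miRNA genes were in the RefSeq miRNA table, 76 in all with 74 distinct seeds. The seed, bases 2 to 8, is in capitals. Shown are the 4 miRNA genes of highest fold, with the sole sharers of a seed among these 76 sequences. MIR6724-1 and MIR6724-3 had no sequence there, so a seed they may share with MIR6724-4 was not counted. MIR4505 and MIR5787 have the seed GGCUGGG, and MIR4492 and MIR5001 the seed GGGCUGG, which is the same run moved by 1 base.
hsa-miR-4449: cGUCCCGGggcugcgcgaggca
hsa-miR-4505: aGGCUGGGcugggacgga
hsa-miR-5787: gGGCUGGGgcgcggggaggu
hsa-miR-4683: uGGAGAUCcagugcucgcccgau
hsa-miR-1915-3p: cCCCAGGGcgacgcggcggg
hsa-miR-4492: gGGGCUGGgcgcgcgcc
hsa-miR-5001-5p: aGGGCUGGacucagcggcggagcu

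Of the protein-coding genes, 18 lay wholly inside 1 peak. Besides MRPS34, they included HES4, a Notch target of the hairy family (fold 6.82, chr1:998794-1001971), GADD45G, a stress response gene (6.13), and ID1, an inhibitor of helix-loop-helix factors (5.83). RPL36, a protein of the large ribosomal subunit (4.68), and TMSB10, an actin-binding thymosin (4.53), were also among them.

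By gene list, KDM2B was counted at the starts of genes of basic cell functions, read against 51.7% of all protein-coding genes and a median fold of 3.94. It was at 50 of 61 cytosolic ribosomal protein genes (median fold 3.36, highest RPL14 at 5.73), at 41 of 69 mitochondrial ribosomal protein genes and at 26 of 33 proteasome subunit genes. Of the proteasome genes, PSMB9 was highest at 5.17, and the core subunit gene PSMB5 had none. It was also at 28 of 33 genes of replication licensing and the fork (MCM3 5.56), 32 of 47 spliceosome protein genes, 13 of 16 cytosolic aminoacyl-tRNA synthetase genes and 20 of 26 autophagy genes. BECN1 and ATG5 were among the 6 autophagy genes without it. Translation initiation factors had it at 27 of 37, RNA polymerase subunits at 18 of 23, TFIID and general transcription factors at 20 of 31, chaperones at 47 of 71 and Mediator subunits at 11 of 21. Replication-dependent histone genes had it at 26 of 64, with 4.0 CpG per 100 bp. H3K4me3 was at 60 of the 61 cytosolic and 69 of the 69 mitochondrial ribosomal protein genes, and at 31 of the 33 proteasome genes. It was at 33 of the 33 replication, 21 of the 21 Mediator, 63 of the 71 chaperone and 41 of the 64 histone genes. Promoters with H3K4me3 numbered 10224 with KDM2B and 4313 without, a higher share than over all promoters (10251 and 10905). The promoters of the lists other than the histones held medians of 7.33 to 10.0 CpG per 100 bp.

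Counts for chromatin regulators were also read against 51.7% of all protein-coding genes. The promoters of these lists held medians of 10.0 to 13.7 CpG per 100 bp. Of all promoters with 10 to 12 CpG per 100 bp, 75.7% had KDM2B. H3K4me3 was at 10 of the 10 PRC2, 8 of the 8 ncPRC1.1 and 17 of the 18 other PRC1 genes with a listed start. It was at 28 of the 28 BAF and NuRD, 16 of the 17 JmjC, 11 of the 11 COMPASS and 19 of the 20 CXXC genes. KDM2B was at all 10 PRC2 genes with a listed start (JARID2 5.39, SUZ12 4.11). It was at 14 of 18 genes of other PRC1 complexes (PHC2 6.27, BMI1 5.36). Of the genes of its own complex it was at 6 of 8 (median fold 4.60), among them KDM2B itself at 5.73, RNF2 at 5.58, the deubiquitinase gene USP7 at 4.73 and PCGF1 at 4.48. SKP1 had 4.10 and RING1 3.48. BCOR, also part of this complex, has no record on the chromosomes read and was not among the 8. RYBP and YAF2, whose products occupy the same place in the complex, had none at a listed start. BAF and NuRD remodelling subunits had it at 21 of 28 (SMARCA2 8.35, DPF1 7.53), JmjC demethylases at 12 of 17 (KDM5B 6.68), COMPASS subunits at 7 of 11, and genes of CXXC domains and DNA methylation at 14 of 20 (TET2 6.09, CXXC5 6.03).

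Gene families of development and differentiation were read against the same 51.7% and 3.94. KDM2B was at 3 of 20 HOX genes (HOXD1 5.24, HOXD4 4.53, HOXA13 3.23), with H3K4me3 at 7 of the 20, and at 21 of 71 other homeobox genes (median fold 4.86, LHX4 7.24). SOX genes had it at 6 of 9 (median 4.58, SOX4 5.58). Forkhead genes had it at 17 of 37 (median 5.00, FOXQ1 8.47), collagens at 12 of 30 (median 5.08, COL5A1 7.75) and potassium channels at 14 of 69 (median 3.82, KCNN2 5.73). H3K4me3 was at 32 of the 71 homeobox genes, 7 of the 9 SOX genes and 21 of the 37 forkhead genes. It was at 17 of the 30 collagens and 30 of the 69 potassium channels. Every gene of these lists with KDM2B also had H3K4me3. Clustered protocadherins had KDM2B at 2 of 47 (PCDHGA7 2.76 and PCDHAC1 2.65), and keratins (34) and olfactory receptors (313) at none. H3K4me3 was at 16 of those protocadherins, 1 keratin and 3 olfactory receptors. Zinc finger genes differed by place, with KDM2B at 84 of 216 on chromosome 19 and 130 of 205 on the other autosomes. H3K4me3 was at 189 and 183 of them. Their median CpG was 7.0 and 8.33 per 100 bp.

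Cell type markers are short lists, counted where they have a listed start and read against 51.7% of all protein-coding genes. They had KDM2B at 9 of 13 mesenchymal and basal genes (EGFR 6.70, AXL 5.41, VIM 4.60) and at 5 of 10 luminal and epithelial ones (CLDN4 5.09, CLDN3 3.74, FOXA1 3.62, CLDN7 and ESR1). CD14 (3.68) and CD8A (3.62) were the haematopoietic ones of 3, and GAD1 (7.51) and TUBB3 (5.39) the neuronal ones of 5.

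Last come KDM2B, MYC, ATF4 and genes of amino acid metabolism, the subject of the study. The KDM2B gene held 5 peaks. A cluster of 3 lay at its downstream start, with folds of 3.49, 3.71 and 5.73. The highest, 7.52 (chr12:121536791-121538902, 2112 bp), lay inside the gene and away from every listed start, and a weak one of 2.37 lay at an upstream start. MYC held 3 peaks, the first of 3608 bp and fold 6.92 (chr8:127735545-127739152), the others of fold 2.38 and 2.37. ATF4, the transcription factor of the amino acid response, held 2 of 3.41 and 2.50.

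Of the enzymes of serine synthesis, PHGDH had 1 weak peak (fold 2.42, 266 bp, −log10 q of 1.92), PSAT1 1 peak of 4.28, and PSPH 2 peaks of 3.52 and 7.65, the second at an end of its record. SHMT2, the mitochondrial serine hydroxymethyltransferase, had 1 weak peak of 2.49. ASNS, the asparagine synthetase, had 3.83 at its listed starts and 2.86 at the upstream end of its record, at −55912 bp from the start. SLC7A5, a subunit of a transporter of large neutral amino acids, held 6 peaks, with 4.11 at its start (921 bp) and the highest, 5.30 (1054 bp), 12565 bp inside the gene. SLC7A11, the cystine transporter, held none. MYC, PSPH, SHMT2 and SLC7A11 have no listed start in the table used. All 26 peaks of these genes and of PCGF1 and RNF2 overlapped MYC and H3K4me3. The upstream ASNS peak also overlapped H2AK119ub and H3K27me3 and lacked H3K27ac, and the PHGDH peak also overlapped H3K27me3. For list members, genes of serine, glycine and one-carbon metabolism had KDM2B at a start in 11 of 20 genes (TYMS 5.26) and amino acid transporters in 18 of 39 genes (SLC43A1 7.15, SLC43A2 6.98), both near the 51.7% of all protein-coding genes. H3K4me3 was at 15 of those 20 and 24 of those 39 genes, among them all with KDM2B.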

How the data were processed

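ChIP-seq peak lists of MDA-MB-231 cells were analysed, 1 joint list per target. Chromatin was digested enzymatically and KDM2B libraries were made from 5 ng of DNA, per the labels' protocols. Trim Galore, Bowtie2 2.4.5, SAMtools 1.6, MACS2 2.2.7.1 and hg38 are named in the submitters' processing notes. The control and any pooling of libraries are not given in the sources used here. The deposited columns used were the authors' fold (a ratio), their −log10 q-value and the summit offset. The deposited score is the whole part of 10 times −log10 q in 99.9% of KDM2B peaks, and with the deposited −log10 p-value it was not used further. Gene records came from RefSeq (GRCh38.p14), and starts with strand from its promoter table, which covered 15101 of 19126 protein-coding genes, none on chromosome 8. For the other 4025, both ends of the record served to place peaks. A peak was at a start with at least 1 bp within 1 kb, and each peak took the first place that applied, in the order given. Analyses used Python 3.11.15, pandas 2.3.3 and scipy 1.17.1, and the interval code was tested on simulated data. No test was run, since 1 list per target leaves no replicates. Named genes followed a rule of highest folds, most peaks, largest widths and clusters, up to 3 members per list, and counts of 5 or fewer. Genes named as lacking a peak and members beyond 3 per list were chosen after their values were seen. The peaks and the 37 gene lists were chosen with earlier results of these data known.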

Additional observations from a re-analysis of the deposited data

How the results depend on the processing

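Of 66 alternatives to 15 values, 12 stayed within the counting interval of the main value or, for a count, within 1.5 times. These included all 3 for the median position of the summit within the peak, which does not measure how central single summits are. A window of 500 bp gave 42.3% of peaks at a gene start, 49.9% of genes with KDM2B at the start, 16.1% of peaks inside a gene and away from its start and 4.59% at 2 or more genes. A window of 2500 bp gave 49.8%, 53.0%, 8.74% and 6.73% of these. With the summit in the window the first pair was 44.3% and 50.6%, with at least 50% of the peak in it 44.5% and 50.8%, and with both ends of the gene record 51.0% and 48.3%.

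Peaks with q under 1e-05 gave 52.7% at a gene start, 40.9% of genes, 8.57% inside a gene, a median width of 529 bp, 34.4% with a neighbour within 3 kb, and 2132 genes with 2 or more peaks. Promoters with KDM2B then had 10.0 CpG per 100 bp and the others 4.0. Overlap was 87.9% with MYC, 82.2% with H3K4me3, 79.5% with H3K27ac, 25.5% with H2AK119ub and 3.64% with H3K27me3. The 10000 peaks of highest fold gave 62.9% at a gene start, 39.0% of genes, 9.66% inside a gene, 6.79% at 2 or more genes, 601 bp, 29.6% with a neighbour and 1847 genes. They gave 10.0 and 4.33 CpG per 100 bp, and overlaps of 97.0% with MYC, 96.8% with H3K4me3, 92.9% with H3K27ac and 3.18% with H3K27me3.

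Neighbours were within 1 kb for 35.9% and within the distance commonly used to join enhancer peaks for 59.3%. Genes with 2 or more peaks numbered 2302 over the record alone and 1640 with near peaks merged. With genes of every type, 14.6% of peaks were at 2 or more. Among genes with H3K4me3, promoters without KDM2B had 6.0 CpG per 100 bp. With at least 50% of the KDM2B peak covered, overlap was 80.9% with MYC, 73.0% with H3K27ac, 16.4% with H2AK119ub and 3.90% with H3K27me3. With the KDM2B summit inside the other peak it was 81.1%, 73.5%, 17.4% and 3.95%. Except where fewer peaks, a longer window or a stricter overlap set the direction by construction, the cause was not tested.

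No paired analysis was possible because each target has 1 joint list. No library was left out, as the lists join them. Depth is unknown, and a place without a listed peak was not shown to lack KDM2B. Mappability and copy number were not measured here.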
